A study of Mus musculus with 172 samples.

Results

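Thyroid hormone signalling was followed through *Dio1*, *Dio2*, *Thra*, *Thrb*, *Hr* and *Thrsp*, chosen by name as deiodinases, receptors and targets of the hormone and taken wherever the deposited tables list them. These are 6 of the 16308 genes listed in cortex or liver. Of the 6 genes, 5 were listed in cortex (without *Dio1*) and 5 in liver (without *Dio2*), so that 4 could be compared between the tissues.

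The BXD panel is a set of inbred mouse lines, each of which carries a fixed mosaic of the genomes of the strains C57BL/6J (B6) and DBA/2J (D2). Male mice of 33 BXD/RwwJ lines, of both parental strains and of their reciprocal F1 hybrids (BD-F1 and DB-F1) were either kept awake by gentle handling for the first 6 h of the light phase (SD) or left undisturbed in another room (Ctr), and both groups were killed 6 h after light onset. For each line, condition and tissue the RNA of several mice was combined, and 1 library was made from each pool. A pool thus carries no information on the spread between mice. For BXD79, BXD85 and BXD101 fewer mice could be used. Of BXD85 and BXD101 the study used 1 mouse per condition for plasma, so their libraries may stand for a single mouse. The parental strains were sampled at the start and at the end of the study (B6-1, B6-2, D2-1 and D2-2), which gives 39 pools per condition and tissue and 39 pairs of a Ctr and an SD pool. The repeated parental pools count as pairs of their own, beside 1 pair for each BXD line and each F1. Another 16 libraries came from 4 BXD/TyJ lines and were kept apart from the main comparisons, entering only an alternative with all 43 pools.

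Thyroid hormone reaches tissues mainly as the prohormone T4. The deiodinase enzymes, which are selenoproteins, convert it: DIO2 makes the active hormone T3 inside cells and in the brain is known mainly from glia, DIO1 does so in liver and kidney and also clears hormone, and DIO3 inactivates it. T3 binds the nuclear receptors THRA and THRB, which sit on DNA with RXR partners and pass from corepressors to coactivators when hormone is bound. *Hr* (hairless) encodes a corepressor of these receptors and is a classical target of the hormone in brain, while *Thrsp* (Spot 14) is a classical target in liver that belongs to the lipogenic programme.

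Promoter sequences matched 4 of the 6 genes (*Dio1*, *Dio2*, *Thrb* and *Thrsp*) in RefSeq on the GRCm38.p6 build, and the 250 bases before the start of transcription are shown for 3 of them: *Dio2*, which had the largest response to SD, *Thrb*, which rose in both tissues, and *Thrsp*, which differed most between lines. Both strands were searched for the cAMP response element, spelt TGACGTCA, which 1.55% of 32851 promoters hold in the same window. The hexamer that nuclear receptors recognise, AGGTCA, is held by 14.0%. The E-box was searched as CACGTG, held by 6.02%, the TATA box as TATAAA, held by 12.4%, and the CCAAT box by its own letters, held by 33.8%. Capitals mark the cAMP response element in *Dio2*, the hexamer in *Thrb* and the CCAAT boxes, on either strand, in *Thrsp*. A match describes the letters and is not evidence of binding.
Dio2, chr12:90739039-90739288, minus strand: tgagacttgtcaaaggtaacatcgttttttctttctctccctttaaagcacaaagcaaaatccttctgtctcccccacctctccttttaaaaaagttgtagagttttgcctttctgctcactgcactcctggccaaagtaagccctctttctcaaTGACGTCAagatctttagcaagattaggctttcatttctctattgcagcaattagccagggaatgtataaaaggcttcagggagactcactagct
Thrb, chr14:17660710-17660959, plus strand: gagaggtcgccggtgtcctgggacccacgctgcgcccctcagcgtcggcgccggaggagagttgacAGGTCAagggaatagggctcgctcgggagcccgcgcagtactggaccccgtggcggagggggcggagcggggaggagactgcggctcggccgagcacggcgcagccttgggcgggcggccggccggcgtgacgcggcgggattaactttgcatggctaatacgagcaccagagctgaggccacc
Thrsp, chr7:97417551-97417800, minus strand: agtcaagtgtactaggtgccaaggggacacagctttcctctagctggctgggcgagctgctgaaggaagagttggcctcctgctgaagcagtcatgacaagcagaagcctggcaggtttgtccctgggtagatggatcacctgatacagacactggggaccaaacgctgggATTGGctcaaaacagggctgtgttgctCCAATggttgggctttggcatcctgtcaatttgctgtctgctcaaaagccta
The cAMP response element of *Dio2* began 95 bases before the start, and its TATA box 30 bases before it. The hexamer of *Thrb* began 184 bases before this start. The other start of *Thrb* in the table has no such hexamer in its window, but an E-box 193 bases and a TATA box 167 bases before it. None of the 5 motifs was found in the window of *Dio1*, and *Thrsp* held only the CCAAT boxes, 52 and 79 bases before its start.

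Reads counted per library ranged from 18995492 to 28998853 in cortex Ctr pools and from 19025159 to 28685060 in cortex SD pools. The liver libraries were shallower, with 5034166 to 8269401 reads in Ctr pools and 4681101 to 8009362 in SD pools. Levels are log2 CPM, the log2 of a gene's reads relative to the reads of its library. Cortex pools held the neuron markers (8 of 8 listed, summed to 8463 to 9573 CPM in Ctr; 1 rose and 4 fell after SD) and liver pools the hepatocyte markers (8 of 8 listed, 4148 to 6897 CPM, of which 0 changed in limma, and 1 with the line as a block). Of the 13105 liver genes with an exon length at hand, none exceeded 1.79 reads per base of its exons on average over the Ctr pools (*Alb*, the albumin gene). In cortex 413 of 13772 such genes exceeded 2. The reads of *Alb* hardly followed the library total (slope of log2 reads on log2 total 0.0716, SE, the standard error, 0.0253, where 1 would be proportional). Among the genes described here *Thrsp* and *Dio1* shared this trait in liver, as given with their results, and its cause was not tested.

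The first question was how SD changes these genes in each tissue. In cortex *Dio2*, *Hr* and *Thrb* rose and *Thra* fell slightly, while *Thrsp* did not change on average. In liver *Thrb* rose, and *Thra* and *Dio1* fell, while *Hr* and *Thrsp* did not pass the threshold. Calls rest on limma fits of every gene in the table of a tissue, with p-values adjusted after Benjamini and Hochberg and a threshold of 0.05. By this rule 4 of the 5 genes listed in cortex changed, 3 up and 1 down, where 68.4% of all genes in cortex changed, 33% up and 35.4% down. In liver 3 of 5 changed, 1 up and 2 down, where 44.2% of all genes changed, 21.5% up and 22.6% down. Counts of this size are near the background, so the results lie in the size of the change of single genes. The share of all genes that moved one way in every pool pair was not counted. Counts of pool pairs therefore only describe a gene. Values after ± are SDs between pools, and the SE given with a change is its standard error.

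**Figure D1:**
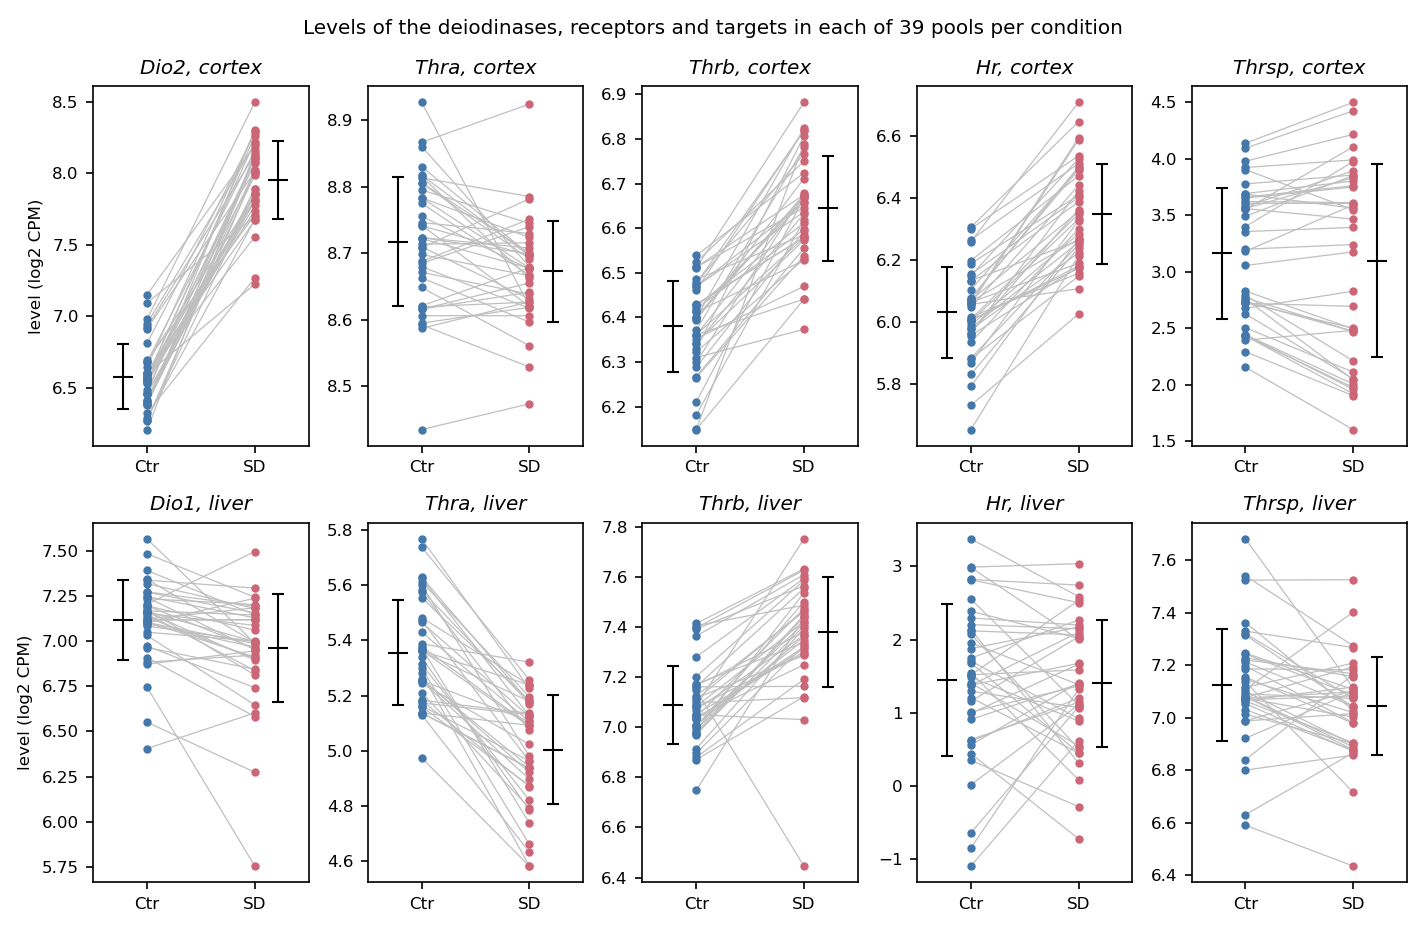
Level (log2 CPM, vertical axis, scaled for each panel) of each gene in the 39 Ctr and 39 SD pools of cortex (upper row) and liver (lower row). Points are pools, grey lines join the pools of a pair, and black marks give the mean and SD. The Ctr and SD pools of *Dio2* in cortex are the only pair of groups that do not overlap, and *Thra* in liver falls in every pair.

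*Dio2* (chromosome 12 of mm9, 91962994 to 91976878, minus strand), the enzyme that makes T3 within tissues, ranged in cortex from 6.21 log2 CPM in the lowest Ctr pool (BXD75) over a median of 6.56 to 7.15 in the highest (BXD55). After SD it ranged from 7.22 (BXD45) over a median of 8.0 to 8.497 (BXD79). The lowest SD pool thus lay above the highest Ctr pool, as it did for 1.01% of all cortex genes, and the level rose in 39 of 39 pool pairs. The mean went from 6.58 ± 0.23 to 7.95 ± 0.27 (n = 39 each), so that the pools differed by 1.38 on the log2 scale (SE 0.0552, adjusted p = 4.5e-37) or 2.59-fold, which placed *Dio2* 51st of 14896 genes by absolute log2 fold change. Behind these levels stand 2215 reads per Ctr pool and 5752 per SD pool on average. With 1 pool per line and condition, a line difference in the rise cannot be told from the spread between pools. Over pairs the rise went from 0.60 in BXD89 to 1.94 in BXD75, with an SD of 0.31. The repeated pools of a strain differed by 0.16 in B6 (1.48 and 1.32) and by 0.22 in D2 (1.62 and 1.85). In the F1 pools the rise was 1.24 (BD-F1) and 1.56 (DB-F1). In the 4 BXD/TyJ lines, kept out of the main test, *Dio2* and *Thrb* were the 2 of 5 genes whose SD pools in cortex all lay above the Ctr pools, as 12.3% of all cortex genes did.

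Since DIO2 in brain is known mainly from glia, the astrocyte markers are given beside it. Of 10 astrocyte markers, all listed, 4 rose and 1 fell in cortex, and 8 rose and 1 fell with the line as a block. Of all 14896 cortex genes 10191 changed in the main fit, and from 9621 to 11383 in the 14 alternatives that include the block. This range is not split into risen and fallen genes. The markers had a median log2 fold change of 0.06 beside -0.01 over all cortex genes. Their summed level went from 6178 to 9282 CPM in Ctr (median 7450) to 6669 to 9391 CPM in SD (median 8031). In bulk tissue, more RNA per cell and more cells of a type cannot be told apart, and the part of astrocyte RNA in the *Dio2* rise was not tested.

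*Dio1* (chromosome 4, 106964070 to 106979774, minus strand), the deiodinase of liver, ranged there from 6.41 (BXD71) over 7.15 to 7.57 log2 CPM (DB-F1) in Ctr pools and from 5.75 (BXD73) over 6.99 to 7.497 (BXD70) in SD pools. The ranges overlapped almost wholly, with 2 SD pools below the lowest Ctr pool. The mean fell from 7.12 ± 0.22 to 6.96 ± 0.30 (n = 39 each), by -0.16 (SE 0.0583, adjusted p = 0.0220), and the level was lower in 31 of 39 pool pairs. The largest fall was -0.99 in BXD73. In the 33 BXD/RwwJ lines alone the same change of -0.16 did not pass (adjusted p = 0.0525). With 0.478 reads per exonic base, *Dio1* reads followed the library total with a slope of only 0.328 (SE 0.207), and its level correlated with the log2 total at r = -0.55 over the 39 Ctr pools. With the total as a covariate, an alternative chosen after seeing the data, the change was -0.17 (adjusted p = 0.0043).

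*Thra* (chromosome 11, 98601952 to 98630320, plus strand), which encodes the receptor that prevails in brain, was the most abundant of the genes in cortex, at a median of 6.52 log2 RPKM (CPM per kilobase of exon) in Ctr pools against 4.02 for *Dio2*, 3.67 for *Thrb*, 3.26 for *Hr* and 2.85 for *Thrsp*. Reads were counted per gene, so transcripts of a gene are not told apart in these levels. In cortex the Ctr pools of *Thra* ranged from 8.43 (BXD55) over 8.72 to 8.93 log2 CPM (BXD67). Its SD pools ranged from 8.47 (BXD55) over 8.68 to 8.92 (BXD66). The groups overlapped fully. The mean differed by -0.045 (SE 0.0197, adjusted p = 0.0370), and 27 of 39 pool pairs were lower. This small change did not pass in the 33 BXD/RwwJ lines alone (adjusted p = 0.0952), nor when any 1 of BXD44, BXD45, BXD67, BXD71, BXD75, BXD81, B6-1 and D2-2 was left out (adjusted p up to 0.0746).

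In liver *Thra* fell in 39 of 39 pool pairs. Ctr pools ranged from 4.97 (BXD48) over 5.34 to 5.77 log2 CPM (BXD85), and SD pools from 4.58 (BXD48) over 5.07 to 5.32 (BXD75). The ranges overlapped, with 17 of 39 SD pools below the lowest Ctr pool. The mean went from 5.36 ± 0.19 to 5.00 ± 0.20 (n = 39 each), or -0.35 on the log2 scale (SE 0.0438, adjusted p = 1.3e-10), which is 0.784-fold. The fall was between -0.70 (BD-F1) and -0.04 (BXD49). The 3′ end of *Thra* overlaps that of *Nr1d1* (98629246 to 98636647, minus strand), the clock repressor REV-ERBα, on the opposite strand. The libraries were stranded, and *Nr1d1* changed by -0.36 in cortex (SE 0.0340, adjusted p = 5.7e-16) and by -0.12 in liver (SE 0.0391, adjusted p = 0.0107).

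*Thrb* (chromosome 14, 18493474 to 18870602, plus strand) encodes the main receptor of liver. In cortex it ranged from 6.15 (BXD75) over 6.40 to 6.54 log2 CPM (BXD66) in Ctr pools and from 6.37 (BD-F1) over 6.65 to 6.88 (BXD79) in SD pools. Of the 39 SD pools, 32 lay above the highest Ctr pool. The level rose in 39 of 39 pool pairs by 0.26 on average (SE 0.0245, adjusted p = 2.7e-16), or 1.20-fold.

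In liver *Thrb* ranged from 6.75 (BXD85) over 7.07 to 7.41 log2 CPM (D2-1) in Ctr pools and from 6.45 (BXD70) over 7.40 to 7.75 (BXD79) in SD pools, with 19 SD pools above the highest Ctr pool. It rose by 0.29 (SE 0.0423, adjusted p = 1.8e-08), in 37 of 39 pool pairs. The line BXD70 stood apart with a change of -0.70, against -0.02 in the next lowest line. Its SD library was the shallowest of the liver libraries, at 4681101 reads, and without BXD70 the log2 fold change was 0.31 (adjusted p = 5.4e-12). Per exon length *Thrb* exceeded *Thra* in liver (4.34 and 3.13 log2 RPKM in Ctr), the reverse of cortex.

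*Hr* (chromosome 14, 70952019 to 70973355, plus strand) ranged in cortex from 5.65 (BXD56) over 6.05 to 6.31 log2 CPM (BXD55) in Ctr pools and from 6.03 (BXD96) over 6.33 to 6.71 (BXD97) in SD pools. It rose in 39 of 39 pool pairs, and 21 SD pools lay above the highest Ctr pool. The rise was 0.32 on average (SE 0.0340, adjusted p = 1.4e-13), which is 1.25-fold, and lay between 0.05 (BXD101) and 0.56 (BXD56) in single lines. In liver *Hr* was near the limit of these depths, with 2 to 80 reads per Ctr pool, and ranged from -1.10 (BXD43) to 3.38 log2 CPM (BXD81) in Ctr and from -0.73 (BXD73) to 3.04 (BXD65) in SD. Its change there was -0.047 (SE 0.213, 95% interval -0.47 to 0.38, adjusted p = 0.881), higher in 18 pairs and lower in 21. This interval leaves out the pairing by line. With the line as a block the SE was 0.146 (adjusted p = 0.805), and the paired test between the tissues is given below.

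*Thrsp* (chromosome 7, 104561448 to 104566240, minus strand) moved in both directions over the pool pairs of cortex. Ctr pools ranged from 2.15 (BXD81) over 3.20 to 4.14 log2 CPM (BXD103) and SD pools from 1.60 (BXD81) over 3.39 to 4.50 (BXD103). The mean change was -0.065 (SE 0.161, 95% interval -0.39 to 0.26, adjusted p = 0.738), higher in 19 pairs and lower in 20. This SE holds the spread between lines, and with the line as a block it was 0.0516 (adjusted p = 0.250). Over single pairs the change spread from -0.72 (BXD83) to 0.58 (BXD95), with an SD of 0.34. The levels spread over 3.96-fold in Ctr and 7.46-fold in SD.

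In liver *Thrsp* ranged from 6.59 (BXD101) over 7.10 to 7.68 log2 CPM (DB-F1) in Ctr pools and from 6.44 (BXD101) over 7.07 to 7.53 (BXD50) in SD pools. The change was -0.082 (SE 0.0446, 95% interval -0.17 to 0.01, adjusted p = 0.133), lower in 26 of 39 pool pairs. This gene was read most densely of those described, with 0.738 reads per exonic base, and its reads did not follow the library total (slope 0.0694, SE 0.154). Its level correlated with the log2 total at r = -0.75 over the 39 Ctr pools. The pools of a pair deviated together, and a replicate block for the line let the fall of -0.082 pass (adjusted p = 0.0140). With the library total as a covariate, chosen after seeing the data, it was -0.10 (SE 0.0285, adjusted p = 0.0027), and with both -0.09 (adjusted p = 2.2e-04).

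**Figure D2:**
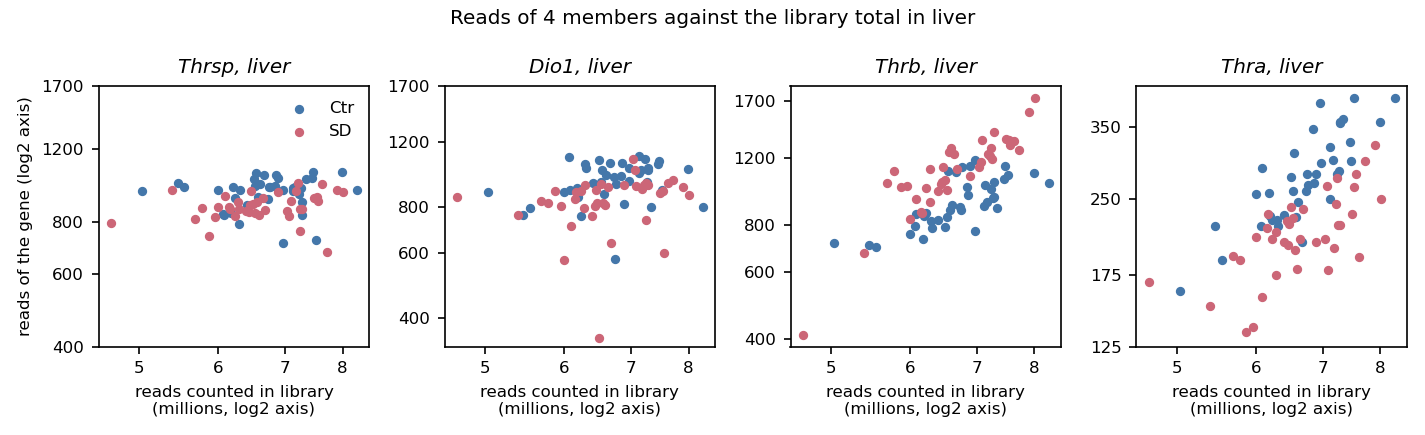
Reads of *Thrsp*, *Dio1*, *Thrb* and *Thra* (vertical, log2 axis) against the reads counted in each liver library (horizontal, log2 axis), for 39 Ctr (blue) and 39 SD pools (red). Reads of *Thrsp* stay between 676 and 1057 over the whole range of totals, while those of *Thra* rise with the total (slope 1.72 in Ctr).

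**Figure D3:**
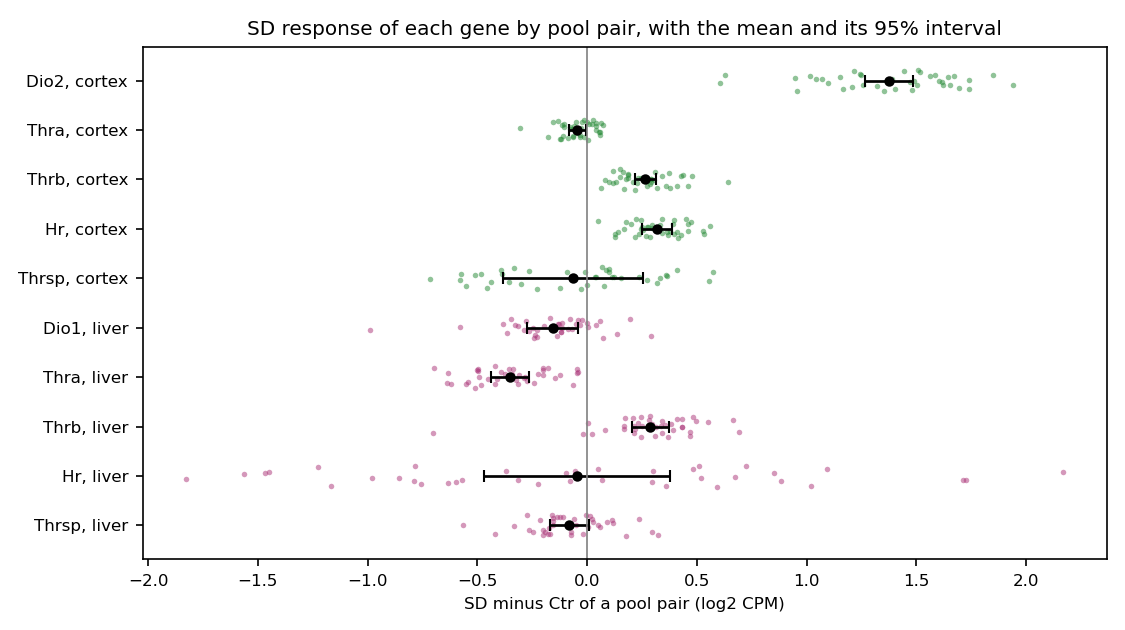
SD minus Ctr of each pool pair (log2 CPM, horizontal axis) for each gene in cortex (green) and liver (purple). Small points are the 39 pairs, and black marks give the mean with its 95% interval from limma. This interval leaves out the pairing by line that the points show. *Dio2* lies furthest from 0, and *Hr* in liver and *Thrsp* in cortex have the widest spread.

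The next question was whether the tissues differed in their response, tested by subtracting for each of 39 pools the cortex change from the liver change (limma, adjusted over 12695 genes, of which 57.6% differed). Of the 4 genes listed in both tissues, 2 differed. *Thra* fell more in liver than in cortex, by -0.31 (95% interval -0.37 to -0.24, adjusted p = 2.2e-11), in 35 of 39 pool pairs. *Hr* had a lower change in liver by -0.36 (95% interval -0.66 to -0.07, adjusted p = 0.0330), in 26 of 39 pool pairs, but this was lost without pairing by line (adjusted p = 0.163) and in the 33 BXD/RwwJ lines alone (-0.29, adjusted p = 0.123). The rise of *Thrb* was not shown to differ (0.02, 95% interval -0.05 to 0.10, adjusted p = 0.621), nor was the change of *Thrsp* (-0.02, 95% interval -0.13 to 0.09, adjusted p = 0.805).

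The third question was how far the lines differ in these genes beyond the spread between the Ctr and SD pool of a line, with each repeated parental pool taken as a line of its own. All 5 genes listed in cortex differed between lines, where 55.2% of all cortex genes did (limma moderated F test), and all 5 listed in liver, where 57.9% of all liver genes did. The share given here is that of the squared deviations within conditions that went with the line. With 38 degrees of freedom each for line and residual, it lies well above 0 even where lines do not differ. It is therefore read beside the median over all genes. The share was 94.4% for *Thrsp* in cortex (adjusted p = 1.5e-16), rank 472 of 14896 genes, beside a median of 66.2% over all cortex genes. It was 83.9% for *Hr* (adjusted p = 3.4e-07), 79.5% for *Thra* (adjusted p = 6.0e-05), 67.6% for *Thrb* (adjusted p = 0.0105) and 61.97% for *Dio2* (adjusted p = 0.0329). *Dio2*, the gene with the largest response, had the lowest share, with a line SD of 0.122 beside a residual SD of 0.218. The residual also holds any difference between lines in the response to SD. The call of *Dio2* was lost without a variance trend (adjusted p = 0.0837) and without BXD79, BXD85 and BXD101 (adjusted p = 0.0919). In liver the shares were 82.7% for *Dio1*, 79.1% for *Thra*, 78.8% for *Thrsp*, 75.2% for *Hr* and 63.8% for *Thrb*, beside a median of 66.8%. The call of *Thrb* was lost in the 33 BXD/RwwJ lines alone (adjusted p = 0.0939) and without a variance trend (adjusted p = 0.0631). With the library total as a covariate the share of *Thrsp* in liver was 71.5% (adjusted p = 0.0069), and that of *Dio1* was 81.9% (adjusted p = 9.4e-06).

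*Thrsp* in cortex also separated the parents. B6 pools were at 3.92 and 3.78 log2 CPM in Ctr and 3.99 and 3.86 in SD, and D2 pools at 2.50 and 2.44 in Ctr and 2.11 and 1.96 in SD. The strains did not overlap, and D2 was lower by 1.63 on the log2 scale (a difference of -1.63, SE 0.106, adjusted p = 2.4e-08, n = 4 libraries each, limma), or 3.10-fold. The F1 pools lay between the parents, at 3.20 (BD-F1) and 3.05 (DB-F1) in Ctr. Of the 33 BXD lines 15 had a Ctr level below both F1 pools, 1 between them and 17 above both. In Ctr 5 lines lay below and 3 above every single parental pool. *Thrsp* was the only 1 of the 5 genes to differ between the parents in cortex, where 25.5% of all genes did. *Hr* passed as well when D2-1 was left out (-0.19, adjusted p = 0.0286).

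The change of *Thrsp* after SD was 0.07 and 0.08 in the B6 pools, -0.39 and -0.48 in the D2 pools, and 0.04 (BD-F1) and 0.12 (DB-F1) in the F1 pools. In the interaction of strain and SD, a test added after seeing the data, the difference of -0.51 (SE 0.170) did not pass over all genes (adjusted p = 0.990, unadjusted p = 0.0095, limma), a test that 0.00671% of cortex genes passed, which is 1 gene. Over all 39 pairs the SD level rose with the Ctr level with a slope of 1.40 (SE 0.0720) and r = 0.95. None of the 5 genes in liver passed that interaction either (adjusted p from 0.147 for *Thrsp* to 0.796 for *Thrb*), where 7.19% of liver genes did.

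**Figure D4:**
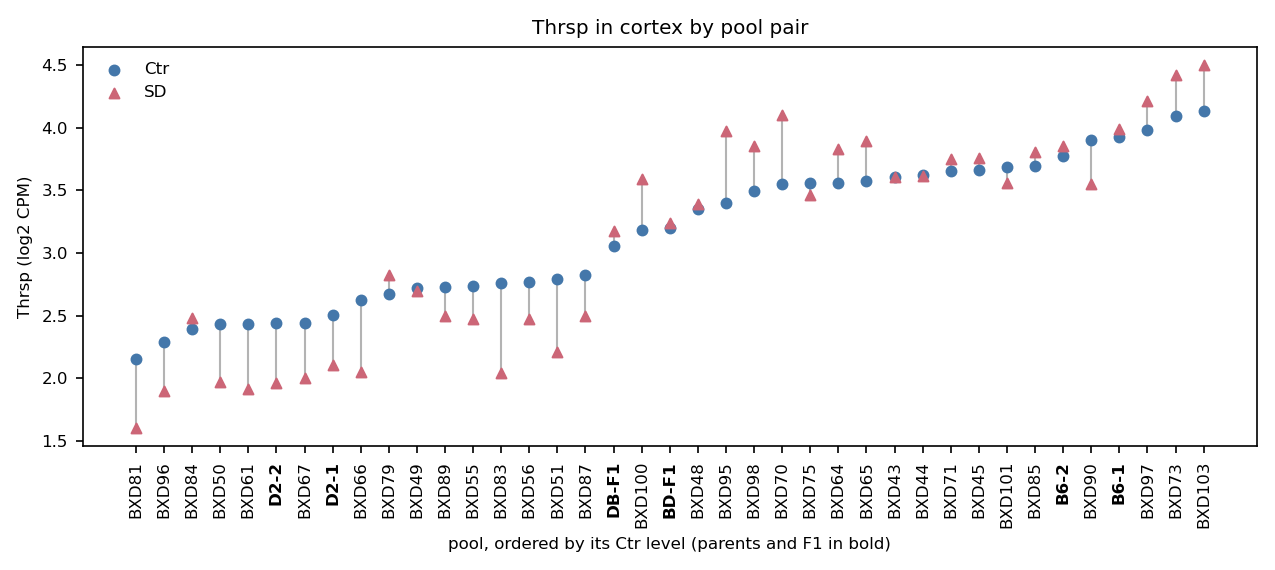
*Thrsp* in cortex (log2 CPM, vertical axis) in the Ctr (circles) and SD pool (triangles) of each pair, ordered by the Ctr level. Parents and F1 hybrids are in bold, with D2 pools at the low end, B6 pools at the high end and F1 pools between 3.05 and 3.20 in Ctr.

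In liver 3 of 5 genes passed the parental test, where 17.9% of all genes did. D2 was higher for *Thra* by 0.28 (SE 0.0870, adjusted p = 0.0386), for *Thrb* by 0.20 (SE 0.0645, adjusted p = 0.0434) and for *Thrsp* by 0.27 (SE 0.0777, adjusted p = 0.0254). The libraries of the strains overlapped for all of these. Leaving out any 1 of the 4 parental pools ended that of *Thra* (adjusted p from 0.0941 to 0.221), and leaving out B6-1, B6-2 or D2-1 ended those of *Thrb* and *Thrsp* (adjusted p up to 0.330 and 0.220). *Dio1* was at 7.01 ± 0.13 in B6 and 7.20 ± 0.07 in D2 libraries (difference 0.19, adjusted p = 0.0715), and passed with the pool as a replicate block (adjusted p = 0.0296).

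Which genes vary over the lines in the same way was described by Pearson's r of the Ctr level over 39 pools, with no test. For *Thrsp* in cortex the most alike were *Clns1a* (r = 0.84), *Myo7a* (r = 0.84) and *Ints4* (r = 0.82), and the most opposite was *Atg16l2* (r = -0.85). All of these lie on chromosome 7 near *Thrsp*, with gaps of 0.279 Mb to *Clns1a*, 0.633 Mb to *Myo7a*, 0.0632 Mb to *Ints4* and 3.87 Mb to *Atg16l2*. Of the 20 genes with the highest absolute r, 14 lay within 5 Mb of *Thrsp*, a window that holds 0.483% of all cortex genes. Neighbours on a chromosome share their parental haplotype in most lines.

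*Thrb* in liver had a like pattern, with *Samd8* (r = 0.74), *Nkiras1* (r = 0.74) and *Vcl* (r = 0.72) the most alike and *1700112E06Rik* the most opposite (r = -0.67). They lie on chromosome 14 at gaps of 3.70, 0.233, 2.88 and 3.97 Mb from *Thrb*. Here 5 of the 20 most related genes lay within 5 Mb, where 0.298% of all liver genes do. In cortex, where the line share of *Thrb* was 67.6%, 0 of 20 did, and the most alike were *Arfgef1* (r = 0.76), *Arih1* (r = 0.75) and *Zfp644* (r = 0.74), with *Arf5* opposite (r = -0.71).

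For the other genes at most 2 of the 20 most related genes lay within 5 Mb (*Thra* in cortex, where 1.32% of all genes do). *Hr* in cortex was most like *Sema7a* (r = 0.83), a membrane-bound semaphorin, *Unc13a* (r = 0.77) and *Pcx* (r = 0.77), and most opposite to *Ak5* (r = -0.81). *Dio2* was most like *Apln* (r = 0.65), *Crot* (r = 0.63) and *Daam2* (r = 0.63), with *Adamts16* opposite (r = -0.63). *Thra* in cortex was most like *Cpne6* (r = 0.72) and *Rgs14* (r = 0.72), with *Aldh1a1* opposite (r = -0.70).

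In liver *Dio1* was most like *Selenbp2* (r = 0.78), *Slc35b1* (r = 0.77) and *Ces3b* (r = 0.76), with *Col6a1* opposite (r = -0.70). *Thra* was most like *Pald1* (r = 0.70), *Ndrg1* (r = 0.69) and *Gpatch2l* (r = 0.68), with *Ypel5* opposite (r = -0.70), and *Hr* most like *Fam124a* (r = 0.66), *Aatk* (r = 0.64) and *Col4a2* (r = 0.64), with *Wdr45* opposite (r = -0.65). *Thrsp* was most like *Gpt2* (r = 0.88), *Fmo5* (r = 0.88) and *Srebf1* (r = 0.85), the gene of a master regulator of lipogenesis, and most opposite to *Zbtb39* (r = -0.78). The level of *Thrsp* in liver moves with the library total, and so do those of *Dio1* (r = -0.55) and *Thra* (r = 0.42). Likeness was therefore also computed with the total removed, after seeing the data. *Dio1* was then most like *Selenbp2* (r = 0.69), *Mup6* (r = 0.69) and *Slc35b1* (r = 0.67), with *Fam198b* opposite (r = -0.62). *Thra* was most like *Pla2g12b* (r = 0.76), *Tbc1d22a* (r = 0.68) and *Ndrg1* (r = 0.67), with *Palmd* opposite (r = -0.67). For *Thrsp* the values were 0.71 for *Gpt2*, 0.69 for *Fmo5* and 0.72 for *Srebf1*. The genes most like *Thrsp* became *Aacs* (r = 0.80), *Elovl6* (r = 0.78) and *Per2* (r = 0.77).

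Relations among the 6 genes themselves were tested over the 39 pool pairs in Ctr, SD and the change, within and between tissues, in 72 combinations with Pearson's r and Spearman's rho (two-sided permutation tests with 100000 resamples, 144 p-values adjusted together). In 1 combination the adjusted p was under 0.05, *Thra* and *Thrsp* in liver Ctr (r = -0.55, adjusted p = 0.0389, rho = -0.40, adjusted p = 0.232). It was -0.61 in the 33 BXD/RwwJ lines alone (adjusted p = 0.0079), but r was -0.37 without BXD85 and BXD101 (adjusted p = 0.181) and -0.38 with the library total removed (adjusted p = 0.271). So over 39 pool pairs no combination of these genes was shown to vary together by both measures.

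The rest of the pathway was followed in lists drawn from textbook knowledge. Where counts with the line as a block are given, the background is 9621 to 11383 changed genes in cortex and 5573 to 8087 in liver. These are the ranges over the 14 alternatives, the block among them, beside 10191 and 6229 genes in the main fits. The alternatives differ in the lines and genes they hold, and the ranges are not split into risen and fallen genes. Of the 13 genes for transport and binding of the hormone, 10 were listed in cortex, where 3 rose and 4 fell (median log2 fold change -0.08 beside -0.01 over all cortex genes). The transporters did not move one way. *Slco1b2* rose by 2.09 (SE 0.118, adjusted p = 9.4e-28) from 9.28 to 40.4 reads per pool, in 39 of 39 pool pairs, and *Slco1c1*, the T4 transporter of the blood-brain barrier, rose by 0.31 (adjusted p = 6.7e-14). *Slco1a4*, another barrier transporter, changed by -0.39 (adjusted p = 7.1e-14). *Ttr*, a carrier of T4 that is abundant in choroid plexus, was at -0.46 (SE 0.390, adjusted p = 0.296). The choroid plexus markers listed in cortex (5 of 8, without *Folr1*, *Kcne2* and *Otx2*) summed to 8.14 to 240 CPM in Ctr and 7.24 to 413 CPM in SD.

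In liver all 13 transport and binding genes were listed, and 2 rose and 3 fell (median 0.01 beside -0.00 over all liver genes). *Slc16a10*, which carries T3 and aromatic amino acids, rose by 0.29 (adjusted p = 7.8e-10) in 39 of 39 pool pairs, and *Slc3a2* by 0.14 (adjusted p = 0.0011). *Slc7a5*, the light chain that pairs with the *Slc3a2* product, changed by -0.44 (adjusted p = 2.5e-05) and *Slco1a4* by -0.42 (adjusted p = 0.0049).

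Of 11 genes that metabolise the hormone or supply selenocysteine to the deiodinases, 7 were listed in cortex, 3 up and 3 down (median -0.03). *Dio3*, which inactivates the hormone, rose by 0.96 (SE 0.131, adjusted p = 6.6e-10) in 34 of 39 pool pairs, at only 15.6 reads per Ctr pool and 30.4 per SD pool, and *Sult1a1*, a sulfotransferase, rose by 0.84 (adjusted p = 4.8e-17). *Pstk*, the kinase of selenocysteine synthesis, changed by -0.37 (adjusted p = 2.7e-23), and *Sephs2*, which makes the selenium donor, by -0.15 (adjusted p = 1.6e-10). In liver 10 were listed, 1 up and 3 down (median -0.04). *Dio3* rose by 0.80 (adjusted p = 8.8e-04), but from 1.38 to 3.46 reads per pool, which is near the floor of 3 reads. Those that fell serve selenocysteine synthesis or insertion, *Sepsecs* (-0.24, adjusted p = 0.0013), *Pstk* (-0.19, adjusted p = 1.7e-05) and *Eefsec* (-0.16, adjusted p = 6.6e-08). *Sephs2* (0.03, adjusted p = 0.463) and *Secisbp2* (-0.09, adjusted p = 0.0982), of the same function, did not pass. With the line as a block 2 genes of this list rose and 3 fell in liver.

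All 16 genes of receptor partners were listed in both tissues. In cortex 8 rose and 3 fell (median 0.06). *Med1*, a coactivator, rose by 0.17 (adjusted p = 2.0e-04) and *Rxra*, the RXR partner, by 0.15 (adjusted p = 3.1e-09), while *Tbl1xr1* of the corepressor complex fell (-0.29, adjusted p = 2.8e-23). In liver 5 rose and 5 fell (median 0.05). *Rxrb* rose by 0.30 (adjusted p = 2.6e-13) and *Med1* by 0.21 (adjusted p = 2.1e-04), whereas *Rxrg* (-0.48, adjusted p = 2.9e-06) and *Tbl1x* (-0.25, adjusted p = 7.3e-04) fell. *Rxra* in liver rose by 0.06 (adjusted p = 0.0121).

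Of 12 known targets in cortex, all listed, 2 rose and 5 fell (median -0.05), or 4 and 5 with the line as a block. *Klf9*, a transcription factor induced by T3 and also by glucocorticoids, rose by 0.35 (adjusted p = 3.2e-15) in 39 of 39 pool pairs, as *Hr* did. *Dbp* (-0.77, adjusted p = 1.1e-21), which is also an output gene of the clock, *Flywch2* (-0.48, adjusted p = 1.5e-09) and *Nov* (-0.27, adjusted p = 1.4e-07) fell. In liver 10 of the 12 were listed, 2 up and 3 down (median -0.03), or 2 and 5 with the block, several at few reads, with *Cntn2* (-0.77) and *Mbp* (-0.30) down and *Nov* up by 0.49, the last from 5.26 to 7.54 reads per pool.

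Of 14 known targets in liver, all listed there, 3 rose and 4 fell (median -0.06). *Fasn*, fatty acid synthase, fell (-0.53, adjusted p = 8.8e-13), as did *Mid1ip1* (-0.36, adjusted p = 2.6e-14) and *Gpd2* (-0.19, adjusted p = 0.0011), while *Klf9* rose by 0.15 (adjusted p = 2.2e-04). In cortex 10 of these were listed, 1 up and 3 down (median -0.02), or 2 and 4 with the block, with *Mid1ip1* at -0.22 (adjusted p = 6.6e-12).

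*Thrsp* belongs to the lipogenic genes, and 13 of those were listed in liver, 1 up and 5 down (median -0.14), or 2 up and 8 down with the line as a block. *Pnpla3* (-1.55, SE 0.305, adjusted p = 1.4e-05), *Srebf1* (-0.63, adjusted p = 3.5e-26), *Fasn*, *Mid1ip1*, the paralogue of *Thrsp*, and *Acly* (-0.29, adjusted p = 2.4e-09) fell. In cortex 12 were listed, 2 up and 4 down (median -0.05), with *Srebf1* at -0.33 (adjusted p = 2.8e-21), *Elovl6* up by 0.33 (adjusted p = 6.6e-24) and *Acacb* up by 0.26 (adjusted p = 1.4e-05). Beside the liver results, the B cell markers (6 of 6 listed) all fell, with a median of -1.30 and a summed level of 8.17 to 33.8 CPM in Ctr and 3.26 to 17.0 CPM in SD, and the part of other cells in these changes was not tested.

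**Figure D5:**
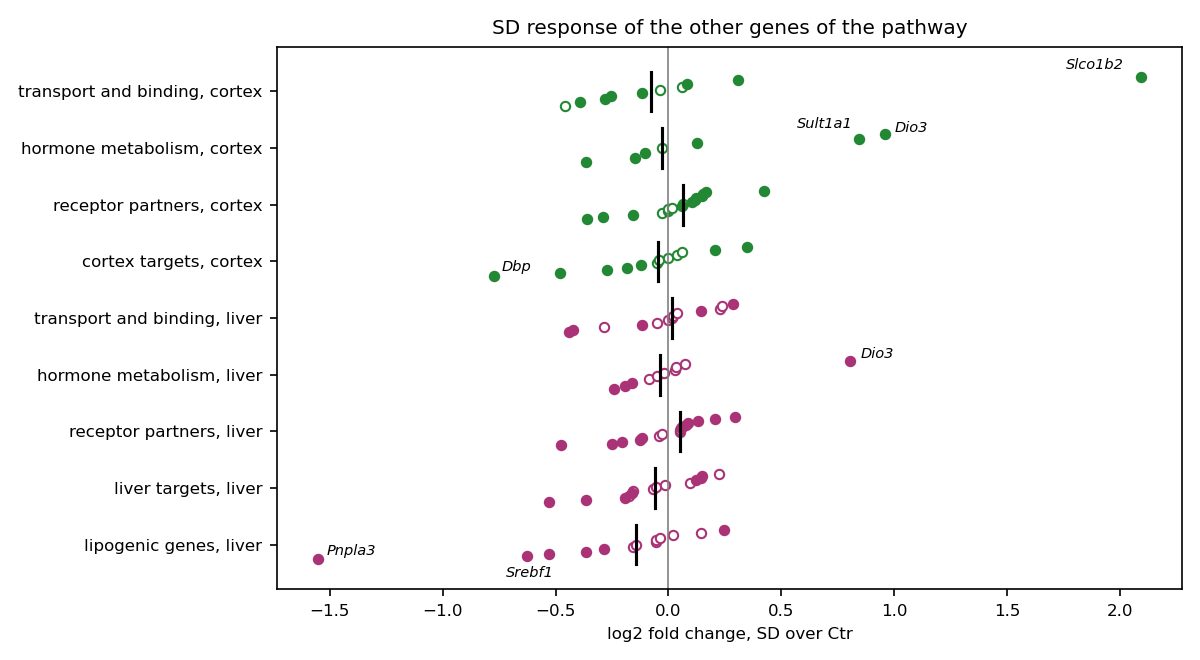
Log2 fold change after SD (horizontal axis) of the listed genes of each pathway list in cortex (green) and liver (purple). Filled points passed an adjusted p of 0.05, open points did not, black bars are list medians, and genes past the threshold with an absolute log2 fold change over 0.6 are named. The list medians lie between -0.14 and 0.06.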

How the data were processed

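Pooled RNA of cortex and liver was measured in 172 libraries. Per the labels and the study's methods, the authors used STAR (mm9) for alignment, HTSeq for stranded counting and edgeR for TMM scaling, and deposited log2 CPM values. These could be turned back into whole read numbers (tolerance 0.02) in 100% of cases, which gave the library totals. SD and Ctr pools (39 each) were compared with limma 3.58.1 in R 4.3.3 (variance trend) and adjusted by Benjamini-Hochberg over 14896 cortex or 14107 liver genes. Lines were tested with a moderated F, the parents with strain and condition, and relations by permutation in numpy 2.4.6. The line was a block only in an alternative. Pools of a line are paired, since their deviations correlated by at least 0.299 in cortex and 0.169 in liver. Scripts were tested on simulated data. Named genes are the 6 members, the up to 4 largest changes past the threshold in each list, the 3 most alike and 1 most opposite genes, and 8 genes of the pathway. Some genes that this rule names are not reported here. Members and lists were chosen with earlier results of these data known. The replicates are pools of separate mice. Gene positions are from GENCODE on NCBIM37 (mm9), and promoters are from RefSeq on GRCm38.p6. Markers of oligodendrocytes, pituitary, adipocytes, erythroid cells and exocrine pancreas were also read: 8, 2, 1, 1 and 2 were listed in cortex and 4, 0, 2, 2 and 1 in liver, of which 2, 0, 1, 0 and 0 rose and 4, 0, 0, 0 and 1 fell in cortex, and 0, 0, 1, 0 and 0 rose and 2, 0, 0, 0 and 0 fell in liver.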

Additional observations from a re-analysis of the deposited data

Results flagged for a closer look

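*Thra* and *Hr* were singled out because their response to SD differed between the tissues, with a change lower in liver than in cortex by -0.31 for *Thra* and by -0.36 for *Hr* (limma adjusted p of 2.2e-11 and 0.0330).

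In the 4 BXD/TyJ lines, which entered no main comparison, the SD pools of cortex lay above all Ctr pools for *Dio2* (7.49 to 8.22 against 6.02 to 6.26 log2 CPM, means 1.65 apart) and for *Thrb* (6.41 to 6.65 against 6.04 to 6.36 log2 CPM, means 0.28 apart). Over all cortex genes, 12.3% separated in this direction. With 4 pools per group no test was run.

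Among these 4 lines a single line stood far from the others in 3 of 20 groups of 4 libraries. For 4 independent values chance gives about 1 in 20. The lines labelled BXD29 and BXD29t share a line number, and their independence was not tested, so the count is only descriptive. *Thra* in cortex Ctr was lowest in BXD05, at 8.60 log2 CPM against 8.79 to 8.82. *Thrsp* in cortex Ctr was lowest in BXD32, at 2.35 against 3.27 to 3.46, and in liver Ctr in BXD29t, at 6.81 against 7.19 to 7.20.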

How the results depend on the processing

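Depth limits *Hr* in liver, at 22.6 reads per Ctr pool on average. Of 844 comparisons of a result with an alternative, 785 kept direction and call, and no cause of the others was tested.

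With the line as a replicate block, *Thrsp* in liver passed (-0.082, adjusted p = 0.0140), as did the parental difference of *Dio1* in liver (0.19), and no other call of these 6 genes changed. *Thrsp* in liver also passed with quantile normalization (-0.096), voom with the block (-0.083) and the library total as a covariate without (-0.098) and with the block (-0.095). In the 33 BXD/RwwJ lines alone, calls were lost for *Thra* in cortex (-0.043), *Dio1* in liver (-0.16), the tissue difference of *Hr* (-0.29, and -0.36 without pairing) and the line share of *Thrb* in liver (59.7%). Without a variance trend, lost calls were the line shares of *Dio2* in cortex (61.97%) and *Thrb* in liver (63.8%) and the parental differences in liver of *Thra* (0.28), *Thrb* (0.20) and *Thrsp* (0.27). Without BXD79, BXD85 and BXD101 the line share of *Dio2* was 58.1% (not passed).

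Signs of changes that were not called turned for *Thrsp* in cortex (0.040, voom with the block), *Hr* in liver (0.045 with quantile normalization, 0.021 in BXD/RwwJ lines), the tissue difference of *Thrsp* (5.8e-04 with all 43 pools) and the parental difference of *Thrb* in cortex (0.015, median-centred). The relation of *Thra* and *Thrsp* was -0.40 by rho, -0.37 without 2 lines, -0.43 median-centred and -0.38 with the total removed, each of which left 0 of 72 relations.

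Leaving out 1 pool pair, *Thra* in cortex ranged from -0.048 to -0.038. Leaving out 1 parental pool, the count of genes that differ between parents ranged from 2398 (without D2-1) to 3417 in cortex (3804 with all) and from 1433 (without B6-2) to 1767 in liver (2524 with all); it was 2527 without D2-2 in cortex and 1630 without D2-1 in liver. Parental differences then ranged from -0.083 to 0.14 for *Dio2*, -0.031 to 0.055 for *Thra*, -0.076 to 0.076 for *Thrb* and -0.19 to -0.023 for *Hr* in cortex, and from -0.13 to 1.31 for *Hr*, 0.25 to 0.31 for *Thra*, 0.12 to 0.29 for *Thrb* and 0.21 to 0.34 for *Thrsp* in liver.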
